A study of Gallus gallus with 10 samples.

Results

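Fat holds a dense network of small vessels, and 38 genes of the cells that line these vessels and of the signals that guide their growth were followed in chicken abdominal fat. The 38 genes were chosen by name, as markers of endothelial cells and parts of the VEGF, angiopoietin, Notch, sphingosine and guidance systems, and every probe set that the array's annotation gives to 1 of these symbols alone was used. All 38 have at least 1 such probe set, 83 in all, out of 38439 probe sets tested and 13009 genes with a symbol of their own. The samples were abdominal fat from 10 male broilers of Arbor Acres origin, 5 birds from the fat line and 5 from the lean line, killed at 7 weeks (49 days) and each hybridised to its own Affymetrix Chicken Genome Array. The lines descend from the same grandsire stock and were bred apart on abdominal fat and on plasma very low-density lipoprotein, under the same diet and housing, without any drug or transgene. Within the series, the fat line birds were picked for the highest share of abdominal fat and the lean line birds for the lowest, so the birds are the ends of their range. Birds are named by their line and the number in their label.

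Vascular endothelial growth factors (VEGF) are secreted by hypoxic or growing tissue and act on receptor tyrosine kinases of endothelial cells, KDR for blood vessels and FLT4 for lymphatic vessels, while FLT1 binds VEGFA tightly and signals weakly. Angiopoietins act through the receptor TEK, with ANGPT1 stabilising vessels and ANGPT2 opposing it in many settings, and Notch signals through DLL4 hold sprouting in check. Junction proteins such as VE-cadherin (CDH5) seal the vessel wall, and factors of the ETS and SOX families keep endothelial identity. These roles are known mostly from mammals. In adipose tissue the capillaries carry lipids to and from fat cells, and vessel growth accompanies growth of the depot.

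Levels are given as linear MAS5 signals, scaled by the authors to the same trimmed mean on each array, and the number of arrays limits the precision. A signal depends on the probes as well as on the RNA, so each probe set was compared only with itself between birds. Where a gene has several probe sets, the one with the highest mean log2 signal stands for it. Mean signals of these 38 probe sets over the 10 birds lay between 244 (EDNRB) and 16689 (PECAM1). The signals of the 14 measured fat cell markers summed to 186642 to 226274 in the fat line and 161551 to 197778 in the lean line. These sums describe the samples and do not test the tissue label. In such bulk samples, fewer endothelial cells and less RNA per endothelial cell cannot be told apart. Fat line 4 stood apart from the other arrays, with a median signal of 276, against 186 to 234 in the other 9 birds. Among the birds, lean line 3 had the highest macrophage and cell cycle markers. Skeletal muscle markers were high in fat line 2 and lean line 3 and 5, and liver markers in lean line 1 and 5. Scan day 3 held fat line 1 to 4 and lean line 3 and 5, and days 1 and 2 held fat line 5 and lean line 1, 2 and 4, so the scan and the line are partly mixed. Day 3 also used a different scanner from days 1 and 2. The signal ratio of the 3' to the 5' control probe sets of actin was 1.55 to 2.05 on day 3. On days 1 and 2 it was 2.28 to 3.09. For GAPDH the ratios were 0.87 to 1.11 and 1.19 to 1.27. The part of these differences in the values was not tested.

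None of the 38 vessel genes passed the test for a difference between the fat and the lean line. By limma with Benjamini-Hochberg adjustment over all probe sets, 0 of the 83 probe sets passed the threshold of 0.05, as did 0% of all probe sets, and SAM called 0 as well. At an unadjusted p under 0.05 there were 12 of the 83 (14.5%), against 7.38% of all probe sets. The fat line signal was the higher one for 8 of them, where the share over all probe sets is 3.38%, and the lower one for 4, where it is 3.99%. With arrays scaled to the same median the split was 9 higher and 1 lower, against 4.09% and 2.51% of all probe sets. The count of 12 rested on single birds and on the processing. It was 7 (8.43%, against 5.49% of all probe sets) without fat line 3 and 6 (7.23%, against 6.44%) without lean line 1. After quantile normalization it was 7 (8.43%, against 7.27%), and with a block for scan day 6 (7.23%, against 6.19%).

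Counted by gene, 4 of 38 (10.5%) had an unadjusted p under 0.05, against 7.93% of all genes. They were S1PR1, SOX17 and HEY1, which were higher in the fat line (3 of 38, against 3.33% of all genes), and NRP2, which was lower (1 of 38, against 4.6%). Of the 38 genes, 24 had a log2 fold (fat line minus lean line) above 0, or 63.2%, against 43.9% of all genes, and 28 of 38 against 56.2% with arrays scaled to the same median. The median log2 fold was 0.079 over the 38 and -0.045 over all genes, and 23 of the 38 were within 0.25 of 0. These signs are those of the brightest probe sets. Of the 24 genes with several probe sets, 14 had probe sets of both signs. All 38 lay above the 50th percentile of mean signal of the probe sets, as did 9293 of all 13009 genes by their brightest probe set. Over all probe sets brighter than the median of the array, the median log2 fold was -0.018. With the fit limited to these, 9 of 74 vessel probe sets (12.2%) had an unadjusted p under 0.05, against 8.62%. No gene had all fat line birds on 1 side of all lean line birds by its brightest probe set, where 1.5% of all genes did. Leaving out 1 bird gave 2 such genes without fat line 2 (S1PR1 and ENG), 2 without fat line 4 (SOX7 and SOX17) and 2 without lean line 3 (VWF and SOX17), where 2.36%, 4.3% and 2.59% of all genes did. The median SD of log2 signal within a line was 0.36 for the 38 genes and 0.34 for all genes whose mean signal was above the median of the array.

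**Figure D1:**
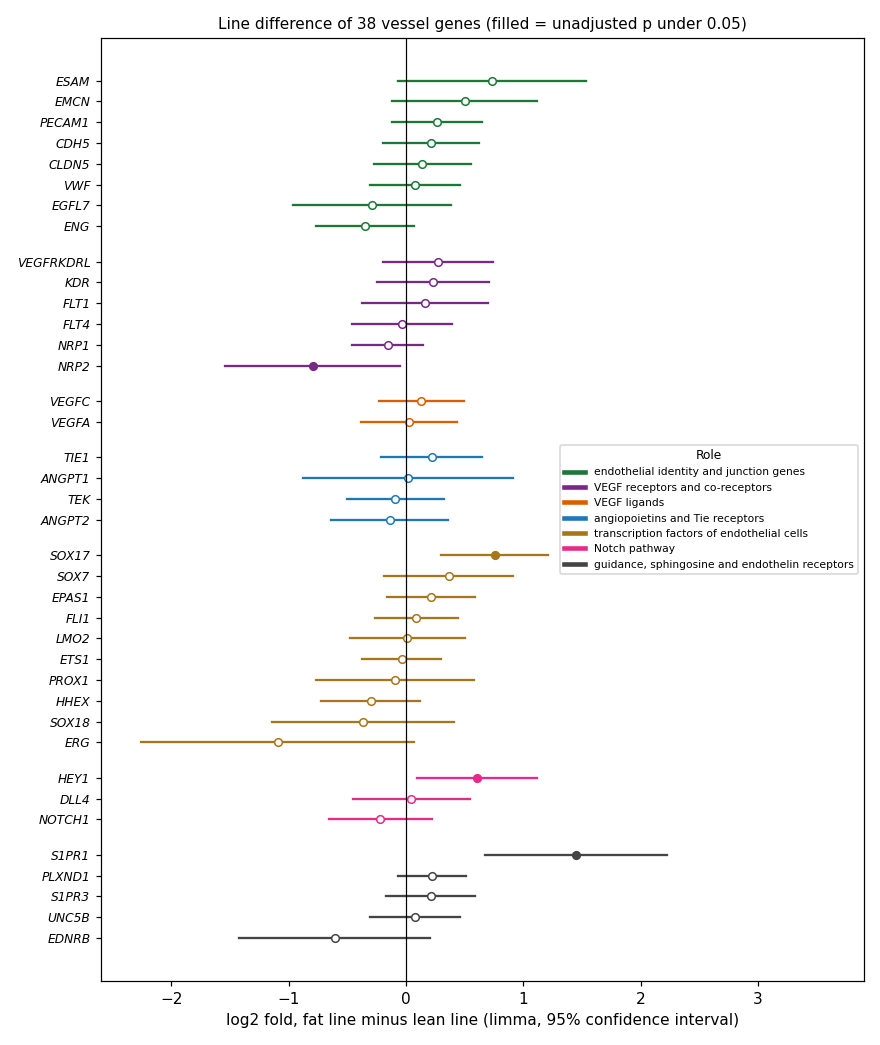
Log2 fold (fat line minus lean line) of the 38 vessel genes by their brightest probe set, grouped by role, with limma 95% confidence intervals over 5 birds per line. Filled points mark S1PR1 (1.45), SOX17 (0.76), HEY1 (0.61) and NRP2 (-0.80), the 4 genes with an unadjusted p under 0.05, and the other intervals include 0.

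Among the 8 endothelial identity and junction genes, 6 leaned higher in the fat line and 2 lower, none past the test, with a median log2 fold of 0.18. The other endothelial markers, a list of 27 measured genes, had 10 above 0 and 17 below with a median of -0.18, where 43.9% of all genes were above 0. PECAM1 (CD31), an adhesion molecule of endothelial junctions, had signals of 18996, 16742, 20074, 11885 and 24127 in fat line birds 1 to 5, against 17766, 13749, 15472, 12139.5 and 15943 in lean line birds 1 to 5. Fat line 5 was the highest bird and fat line 4 the lowest, and the lines overlapped. PECAM1 had a log2 fold of 0.26 (SE 0.18, adjusted p = 0.792 by limma), and its 3 probe sets gave 0.21 to 0.31 and varied together (r = 0.87 to 0.93 with line means subtracted). CDH5, the cadherin of endothelial junctions, had 11851, 8841, 10322, 6349 and 11375 in fat line birds 1 to 5, against 8746, 6439.5, 10543, 6529 and 9589 in lean line birds 1 to 5. The same fat line 4 was lowest, close to lean line 2 and 4, and CDH5 had a log2 fold of 0.21 (SE 0.19, adjusted p = 0.851 by limma). Within scan day 3 that sign turned, to -0.14.

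Von Willebrand factor (VWF), the blood-clotting protein stored in endothelial cells, had 13934, 12551, 13328, 13436 and 13085 in fat line birds 1 to 5, against 11079.5, 11704, 20739, 9446 and 12275 in lean line birds 1 to 5. The fat line birds lay within a narrow band, and lean line 3 was far above the other lean line birds. VWF had a log2 fold of 0.079 (SE 0.18, adjusted p = 0.956 by limma), which was 0.26 without lean line 3 and -0.063 with scan day as a block. Its dimmer probe sets gave 0.61 and 0.77, the dimmest of which had an unadjusted p of 0.0397 and a limma adjusted p of 0.665. Endoglin (ENG), a TGF-beta co-receptor of vessels, had 1053, 1332, 1006, 837 and 921 in fat line birds 1 to 5, against 1110.0, 1217, 2064, 1128 and 1156 in lean line birds 1 to 5. Here too lean line 3 was far above the rest of its line. ENG had a log2 fold of -0.35 (SE 0.20, adjusted p = 0.746 by limma), and -0.18 without that bird.

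The junction protein ESAM averaged 1233 ± 801 in the fat line and 675 ± 266 in the lean line (SD, n = 5 each), a log2 fold of 0.73 (95% confidence interval -0.072 to 1.54). Its spread was wide, and the highest bird was fat line 4 with 2543, without which the log2 fold of ESAM was 0.41. EGFL7, a matrix protein secreted by endothelial cells, averaged 2121 ± 473 in the fat line and 3006 ± 2200.4 in the lean line (SD, n = 5 each). Lean line 3 alone reached 6869, and the log2 fold of -0.29 turned to 0.063 without it. Endomucin (EMCN), a sialomucin of veins and capillaries, had a log2 fold of 0.50 (SE 0.29, adjusted p = 0.755 by limma). CLDN5, the claudin of endothelial tight junctions, had 0.14 (SE 0.19, adjusted p = 0.921 by limma) and only 0.011 without lean line 3. The other CLDN5 probe set gave -0.019.

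The 6 VEGF receptors and co-receptors divided into 3 with a log2 fold above 0 (FLT1, KDR and VEGFRKDRL) and 3 below (FLT4, NRP1 and NRP2), and none passed the test. The sign of FLT4 turned, to 0.059, with arrays scaled to the same median. FLT1, KDR and VEGFRKDRL were named by the study from these same birds, so their direction here is not independent evidence. The folds it reported for its probe sets of these genes were larger than those found here, and its screen left out 1 fat line bird. By those same probe sets, the linear fold here was 1.60 for FLT1, 1.23 for KDR and 1.08 for VEGFRKDRL. The limma adjusted p were 0.518, 0.875 and 0.958. With any 1 bird left out, the log2 fold of that FLT1 probe set was 0.58 to 0.80. The cause of the gap was not tested. For FLT1 the study also reported a higher fat line level by real-time RT-PCR, which included RNA pools of birds not used on the arrays. FLT1, which binds VEGFA, had 876, 527, 636, 871 and 465 in fat line birds 1 to 5, against 521, 538, 1014, 476 and 506 in lean line birds 1 to 5 by its brightest probe set. The highest bird was lean line 3, and FLT1 had a log2 fold of 0.16 (SE 0.25, adjusted p = 0.928 by limma), which was 0.053 without fat line 1 and 0.36 without lean line 3. The dimmest of its 3 probe sets had 400.0, 407, 474, 602 and 420.5 in fat line birds 1 to 5, against 253, 249.9, 396, 266 and 280.2 in lean line birds 1 to 5. Here every fat line bird was above every lean line bird, the only 1 of the 83 probe sets for which this held, where 1.39% of all probe sets did. Its log2 fold was 0.68 (SE 0.23, unadjusted p = 0.00933, adjusted p = 0.518 by limma, exact permutation p = 0.00794), and 0.48 within scan day 3. The study named FLT1 by this probe set from these same birds, so its separation and p here are not independent evidence. The remaining probe set gave -0.092, so the probe sets of FLT1 did not point the same way.

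KDR, the main signalling receptor for VEGFA, had 895, 637, 957, 460.4 and 716 in fat line birds 1 to 5, against 681, 438, 691, 598 and 658 in lean line birds 1 to 5 by its brightest probe set. The lines overlapped, with fat line 4 and lean line 2 as the lowest birds. All 5 probe sets of KDR had a log2 fold above 0, between 0.12 and 0.55, although they varied together only in part (r = -0.12 to 0.69). The largest, from the third brightest, came from signals of 763, 468, 868, 691 and 672 in fat line birds 1 to 5, against 524, 539, 482, 406 and 387 in lean line birds 1 to 5, a log2 fold of 0.55 (SE 0.21, unadjusted p = 0.0171, adjusted p = 0.576 by limma, exact permutation p = 0.0317). The name of this probe set carries the array's mark for probes that can match other transcripts. VEGFRKDRL, a gene annotated as a KDR-like VEGF receptor, had 1097, 700.0, 966, 1113 and 907 in fat line birds 1 to 5, against 705, 786, 1220.2, 841 and 510.5 in lean line birds 1 to 5. Lean line 3 was the highest bird and lean line 5 the lowest, and the 3 probe sets gave log2 folds of 0.11 to 0.31. VEGFRKDRL averaged 957 ± 168 in the fat line and 812 ± 260.1 in the lean line (SD, n = 5 each) by the brightest, with a limma adjusted p of 0.833.

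FLT4, the receptor for VEGFC, had 1748, 1081, 1841, 1247 and 2107 in fat line birds 1 to 5, against 1401, 1830.3, 1375, 1406 and 2102 in lean line birds 1 to 5. The lean line birds lay within the range of the fat line birds, and FLT4 had a log2 fold of -0.038 (SE 0.20, adjusted p = 0.982 by limma). The 5 probe sets of FLT4 reached from -0.038 to 1.81. The highest was dim, with 171, 138, 201, 61.7 and 269 in fat line birds 1 to 5, against 9.1, 46.3, 125, 11.3 and 251 in lean line birds 1 to 5. Its unadjusted p was 0.0473 (limma adjusted p = 0.672), and within scan day 3 its sign turned, to -0.44. With signals under 100 set to 100, the log2 fold of this probe set was 0.40. NRP1, a neuropilin that binds VEGFA and semaphorins, ranged from 11792 (fat line 4) to 18409.9 and had a log2 fold of -0.16 (SE 0.14, adjusted p = 0.853 by limma). Its paralog NRP2, the neuropilin of veins and lymphatic vessels, had 567, 633, 287, 208 and 445 in fat line birds 1 to 5, against 495, 371, 1149, 915 and 776 in lean line birds 1 to 5. The lowest signals were those of fat line 3 and 4 and the highest those of lean line 3, 4 and 5, and the lines overlapped at lean line 1 and 2. NRP2 had a log2 fold of -0.80 (SE 0.35, unadjusted p = 0.0379, adjusted p = 0.656 by limma, exact permutation p = 0.0952). It was -1.23 with scan day as a block (limma unadjusted p = 0.0041) and -0.56 without fat line 4 (limma unadjusted p = 0.115). The limma unadjusted p was 0.054 after quantile normalization and 0.103 with arrays scaled to the same median. The other probe sets of NRP2 gave -0.50 (unadjusted p = 0.0437) and 0.30.

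**Figure D2:**
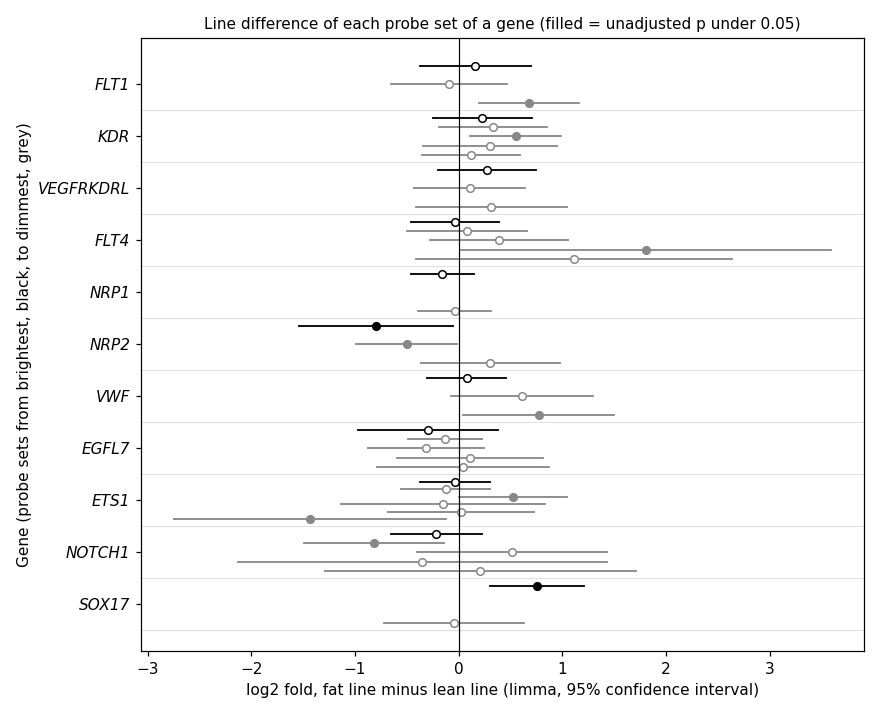
Log2 fold (fat line minus lean line) of each probe set of 11 vessel genes that have several, from the brightest (black) to the dimmest (grey), with limma 95% confidence intervals over 5 birds per line. Filled points have an unadjusted p under 0.05. All 5 probe sets of KDR lie above 0 (0.12 to 0.55), while those of ETS1 reach from -1.44 to 0.53.

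The log2 folds of the ligands VEGFA and VEGFC were within 0.25 of 0. VEGFA, the main growth factor for blood vessels, had 753, 555, 591, 539 and 500.5 in fat line birds 1 to 5, against 492, 719, 591, 481 and 606 in lean line birds 1 to 5. No bird was below 481 or above 753, and VEGFA had a log2 fold of 0.026 (95% confidence interval -0.38 to 0.43). VEGFC, the lymphatic growth factor, averaged 835 ± 123 in the fat line and 764 ± 116 in the lean line (SD, n = 5 each), with a log2 fold of 0.13 (95% confidence interval -0.23 to 0.49).

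In the angiopoietin system, 2 genes leaned higher in the fat line and 2 lower, with log2 folds between -0.14 and 0.22. ANGPT1, the activating ligand of TEK, was dim and varied widely, with 312, 156, 291, 106 and 486 in fat line birds 1 to 5, against 175, 151, 399, 204 and 320.5 in lean line birds 1 to 5. Its lowest bird was fat line 4 and its highest fat line 5, and its mean log2 fold was 0.015 (95% confidence interval -0.88 to 0.91). The other ANGPT1 probe set gave -0.39. ANGPT2, the context-dependent ligand, had 2635, 2530.3, 2879, 2213 and 5553 in fat line birds 1 to 5, against 4019, 3795, 2173, 3119 and 3709.5 in lean line birds 1 to 5. Fat line 5 was far above the other fat line birds, which were below 4 of the 5 lean line birds. ANGPT2 had a log2 fold of -0.14 (SE 0.23, adjusted p = 0.934 by limma), -0.36 without fat line 5, -0.033 without fat line 4 and 0.12 with scan day as a block.

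The receptor TEK (TIE2) had 2617, 2169, 2512, 2119 and 2399 in fat line birds 1 to 5, against 2007, 2728, 4219.6, 1890.3 and 2272 in lean line birds 1 to 5. As for VWF, the fat line birds were close to each other and lean line 3 was the highest bird. TEK had a log2 fold of -0.091 (SE 0.19, adjusted p = 0.952 by limma), 0.097 without lean line 3 and 0.0059 with arrays scaled to the same median. Its partner receptor TIE1 had 1332, 1264, 1013, 1469 and 1035 in fat line birds 1 to 5, against 774, 867, 1655, 1104 and 991 in lean line birds 1 to 5. The highest bird was again lean line 3, and the log2 fold of TIE1 was 0.22 (SE 0.20, adjusted p = 0.859 by limma), with 0.21 by the other probe set and -0.044 with scan day as a block.

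The 10 transcription factors of endothelial cells were evenly divided, 5 above 0 and 5 below, of which ETS1 and PROX1 turned to above 0 with arrays scaled to the same median. SOX17, a factor of arterial endothelium, had 2443, 2454, 3706, 2314 and 3867 in fat line birds 1 to 5, against 1512, 1210.0, 2424, 1467 and 2226 in lean line birds 1 to 5. Fat line 3 and 5 were the highest birds, and the lowest fat line bird (2314) was above all lean line birds but lean line 3 (2424). SOX17 had a log2 fold of 0.76 (SE 0.21, unadjusted p = 0.00306, adjusted p = 0.411 by limma, exact permutation p = 0.0159). Leaving out 1 bird gave 0.63 to 0.88, but within scan day 3 (4 fat line and 2 lean line birds) the log2 fold was 0.21 (SE 0.23), and a dimmer probe set gave -0.049. The size of that difference was not tested against those of its relatives SOX7 and SOX18. SOX7 had a log2 fold of 0.36 (SE 0.26, adjusted p = 0.802 by limma), with fat line 5 at 12617 and fat line 4 at 3169.7 around a lean line range of 4535 to 5614, and SOX18 had -0.36 (SE 0.36, adjusted p = 0.874 by limma). Without fat line 4 the log2 fold was 0.62 for SOX7 and -0.089 for SOX18, and that of SOX7 was 0.12 without fat line 5. A dimmer SOX7 probe set gave -0.36 with all 10 birds.

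Of the ETS family, ERG had the lowest log2 fold of the 38 genes, -1.09 (SE 0.55, adjusted p = 0.707 by limma). Its signal was 101 in fat line 4 and 502 to 1866 in the other fat line birds, against 886 to 1717 in the lean line. Without fat line 4 the log2 fold of ERG was -0.46. FLI1 had 3437, 3748, 3476, 2174 and 3359 in fat line birds 1 to 5, against 2529, 3655, 3144, 2566 and 3221 in lean line birds 1 to 5. Fat line 4 was below the rest of its line, and FLI1 had a log2 fold of 0.089 (SE 0.17, adjusted p = 0.942 by limma), and 0.23 without that bird. ETS1 had a log2 fold of -0.038 by its brightest probe set, but its 6 probe sets disagreed. The second brightest gave -0.12, and the third brightest gave 0.53 (unadjusted p = 0.0474, limma adjusted p = 0.673). The dimmest, whose mean signal was 29.8 in the fat line and 74.5 in the lean line, gave -1.44 (unadjusted p = 0.0338, limma adjusted p = 0.652).

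HHEX, a homeobox factor of early endothelium and liver, had 2859.9, 2326, 2756, 2208 and 3224 in fat line birds 1 to 5, against 3128, 2783, 5596, 3074 and 2469 in lean line birds 1 to 5. No other bird came near lean line 3. HHEX had a log2 fold of -0.30 (SE 0.20, adjusted p = 0.784 by limma), and -0.11 without that bird. EPAS1 (HIF2A), the hypoxia-inducible factor of endothelial and fat cells, averaged 17560.3 ± 3195 in the fat line and 15144 ± 2926 in the lean line (SD, n = 5 each), a log2 fold of 0.21 (SE 0.18, adjusted p = 0.835 by limma). LMO2, a bridging protein of blood and vessel progenitors, had 0.011 (95% confidence interval -0.48 to 0.50), and -0.27 by its other probe set. PROX1, the lymphatic identity factor, had -0.095 (95% confidence interval -0.77 to 0.58).

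Of the Notch pathway, HEY1, a repressor switched on by Notch signals, had 1879.7, 1138, 1525, 975 and 2365 in fat line birds 1 to 5, against 691, 1362, 959, 992 and 1028 in lean line birds 1 to 5. Fat line 1, 3 and 5 were above all lean line birds, and fat line 2 and 4 lay within the lean line range. HEY1 had a log2 fold of 0.61 (SE 0.24, unadjusted p = 0.0233, adjusted p = 0.605 by limma, exact permutation p = 0.0635), between 0.44 and 0.76 when 1 bird was left out. It was 0.43 (SE 0.28) within scan day 3, and 0.59 with wash run as a block (limma unadjusted p = 0.0578). The receptor NOTCH1 had a log2 fold of -0.22 (SE 0.21, adjusted p = 0.863 by limma), which was -0.067 without fat line 4, and the ligand DLL4 had 0.046 (SE 0.23, adjusted p = 0.981 by limma), so the 3 genes did not lean the same way. The second brightest NOTCH1 probe set averaged 166 ± 45.1 in the fat line and 292 ± 80.3 in the lean line (SD, n = 5 each), a log2 fold of -0.82 (SE 0.32, unadjusted p = 0.0208, adjusted p = 0.591 by limma, exact permutation p = 0.0238), while the 5 probe sets reached from -0.82 to 0.51.

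The highest log2 fold of the 38 genes was that of S1PR1, the receptor through which sphingosine 1-phosphate tightens endothelial junctions and slows sprouting, and which also lets lymphocytes leave lymphoid organs. Its only probe set had 1445, 478, 2289.5, 2306 and 2274 in fat line birds 1 to 5, against 489, 443, 592, 845 and 504 in lean line birds 1 to 5. Fat line 1, 3, 4 and 5 were above every lean line bird, and fat line 2 was below all but lean line 2. The mean was 1759 ± 804 in the fat line and 575 ± 160.3 in the lean line (SD, n = 5 each), a log2 fold of 1.45 (95% confidence interval 0.67 to 2.23). By limma the unadjusted p was 0.00125 and the adjusted p 0.321, the smallest of the 83 probe sets but not past the threshold, and the exact permutation p was 0.0397, where 5 birds against 5 allow no less than 0.00794. Without fat line 2 the limma adjusted p was 0.0245 with a log2 fold of 1.87, the only bird whose removal took it past 0.05. The log2 fold was 1.36 with scan day as a block, 1.49 with wash run as a block and 1.34 within scan day 3.

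The other sphingosine receptor, S1PR3, had 822, 780.4, 786, 609.9 and 815 in fat line birds 1 to 5, against 819, 528, 753, 576 and 646 in lean line birds 1 to 5. Fat line 4 was below the rest of its line. S1PR3 had a log2 fold of 0.21 (SE 0.18, adjusted p = 0.842 by limma). PLXND1, the endothelial receptor for a semaphorin that repels vessels, averaged 5788 ± 462 in the fat line and 5002 ± 777 in the lean line (SD, n = 5 each), a log2 fold of 0.22 (SE 0.14, adjusted p = 0.771 by limma). UNC5B, a netrin receptor of vessel tips, had 0.079 (SE 0.18, adjusted p = 0.956 by limma), and 0.44 by its other probe set. EDNRB, an endothelin receptor, had -0.61 (SE 0.38, adjusted p = 0.773 by limma), but 0.049 by its other probe set.

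**Figure D3:**
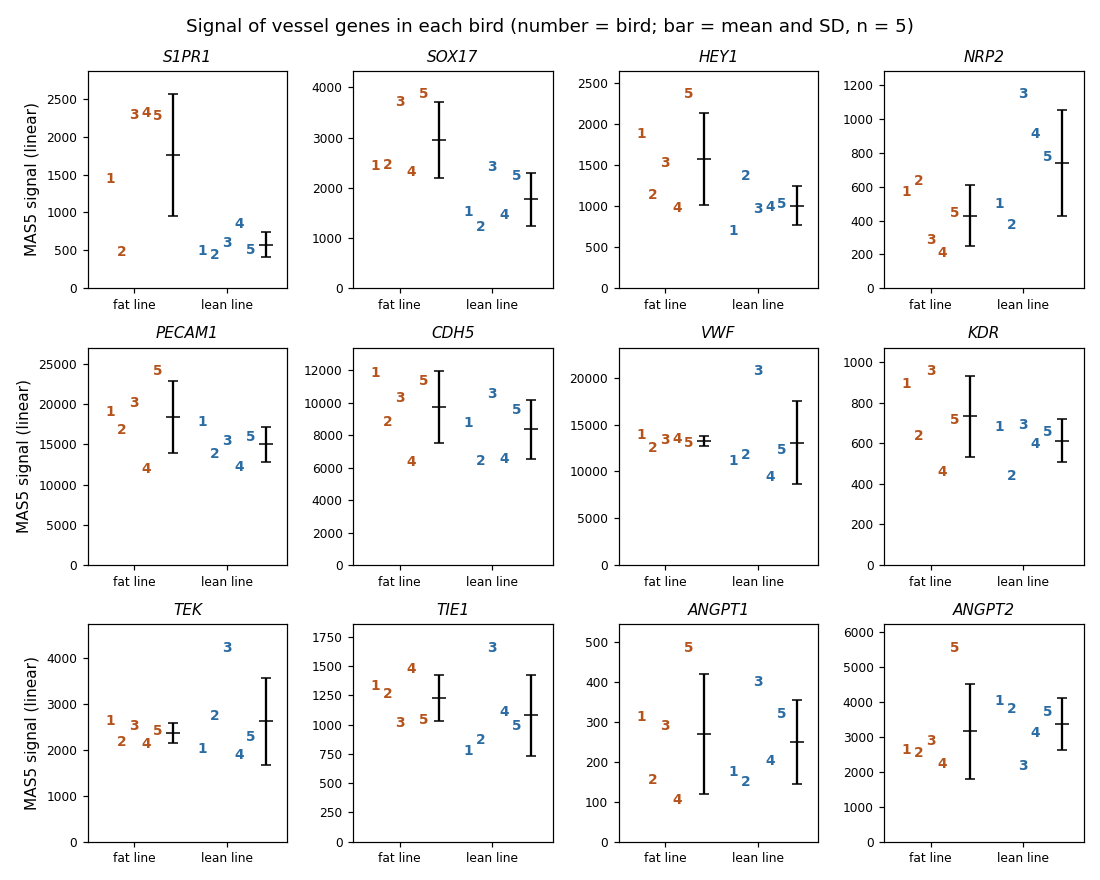
MAS5 signal (linear scale) of 12 vessel genes in each bird, fat line left and lean line right, with the bird's number as its mark and the mean and SD of the 5 birds as bars. S1PR1 is above the lean line range in 4 of the 5 fat line birds (fat line 2 has 478), and lean line 3 is the highest bird for VWF, TEK and TIE1.

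Markers of other cells in the same samples leaned between the lines as well. Of 12 measured pericyte and smooth muscle markers, 6 were lower in the fat line at an unadjusted p under 0.05 and 0 higher, where the shares over all genes are 4.6% and 3.33%, with a median log2 fold of -0.56. Their summed signal was 18132 to 27502 in the fat line and 24979.7 to 72658 in the lean line. The 14 fat cell markers had a median of 0.31, with 5 higher and 1 lower at that p, to be read against the same shares. None of these passed the adjusted threshold, and their part in the values of the vessel genes was not tested.

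Between birds of the same line, the 38 genes showed a weak common variation. With each line's mean subtracted, the median Pearson r over the 703 pairs of the 38 genes was 0.16, and 68.4% of the pairs were above 0. Over all pairs of genes on the array the median was 0.0029, and 0.0020 over pairs of genes brighter than the median of the array. These r are over 10 birds. The signals of all genes in a bird come from the same array, and some arrays share a wash run. The r are given as a description, with no test. The level depended on fat line 4, without which the median was 0.091, and it was 0.068 without lean line 3 as well. It depended also on the scaling. With arrays scaled to the same median it was 0.47, where all pairs of such brighter genes had 0.23, and with wash runs subtracted it was 0.33.

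Averaged over the 38 genes, the log2 signal relative to the mean of the 10 birds was 0.23, -0.087, 0.059, -0.29 and 0.25 in fat line 1 to 5, against -0.12, -0.093, 0.18, -0.11 and -0.019 in lean line 1 to 5. Fat line 1 and 5 and lean line 3 were high, and fat line 4 was low. The lines averaged 0.032 ± 0.23 in the fat line and -0.032 ± 0.13 in the lean line (SD, n = 5 each). In fat line 4 the mean was -0.67 for the transcription factors, -0.41 for the Notch pathway, -0.36 for the angiopoietins and Tie receptors, -0.29 for the VEGF receptors, -0.072 for the VEGF ligands, -0.045 for the identity and junction genes and 0.12 for the guidance, sphingosine and endothelin receptors. The mean over all genes of the array was 0.15 in fat line 4. Lean line 3 was high in the identity and junction genes (0.34), in the macrophage markers (0.99), in the cell cycle markers (1.07) and in the skeletal muscle markers (2.35). The 15 measured macrophage markers summed to 67740.3 to 80134 in the fat line and 59747 to 106377 in the lean line. The part of these other cells in its vessel signals was not tested.

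**Figure D4:**
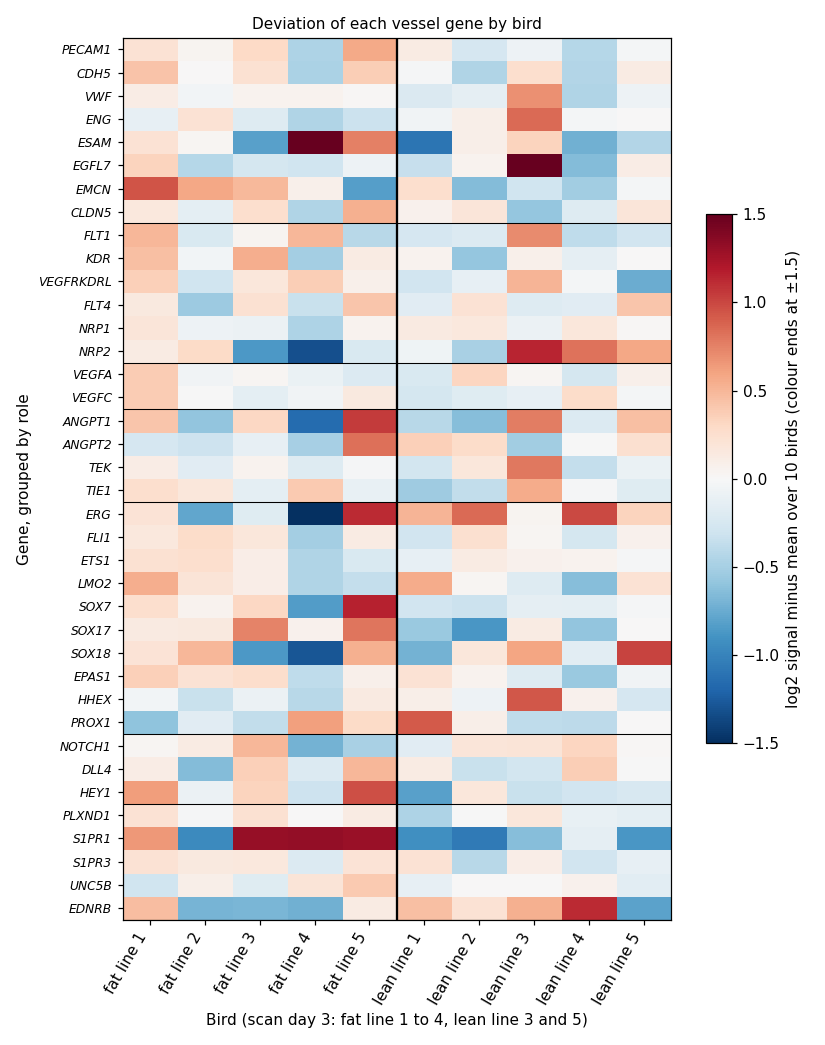
Log2 signal of each of the 38 genes minus its mean over the 10 birds (colour, ending at ±1.5), with genes down the page grouped by role and birds across, fat line left of lean line. The column of fat line 4 is low for ERG, SOX18, NRP2 and ANGPT1 and that of lean line 3 is high for EGFL7, NRP2, HHEX and ENG. S1PR1 is high in fat line 1, 3, 4 and 5.

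Set against the mean of the remaining genes of the group, the r of a gene was above 0 for 34 of the 38 and above 0.5 for 18. Without fat line 4 it was above 0.5 for 12 and below 0 for 9. These counts were not set against those of all genes. ANGPT1 (0.92), CDH5 (0.86), SOX7 (0.77) and PECAM1 (0.73) followed the rest most closely. Without fat line 4 these were 0.86, 0.74, 0.52 and 0.44. With all birds, the 4 genes below 0 were PROX1 (-0.56), ESAM (-0.22), UNC5B (-0.18) and EMCN (-0.18). For ESAM and UNC5B the sign rested on fat line 4, without which their r were 0.55 and 0.034. NRP1, CLDN5, ETS1, NOTCH1, EPAS1, LMO2 and ANGPT2 turned the other way, to below 0 without that bird. PROX1 had a negative r with 30 of the other 37 genes, among them the lymphatic genes FLT4 (-0.12) and VEGFC (-0.53). Without fat line 4, its r with the mean of the other genes was -0.32, and without lean line 3 as well it was -0.095.

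Among all 703 pairs, the highest r joined VWF, EGFL7 and TEK, at 0.96 for VWF with EGFL7, 0.95 for EGFL7 with TEK and 0.93 for VWF with TEK. All 3 are highest in lean line 3, and without that bird the r were 0.84, 0.80 and 0.67. The next were ERG with SOX7 (0.91), LMO2 with EPAS1 (0.90), NRP1 with ERG (0.90) and CLDN5 with ANGPT2 (0.89). Without fat line 4, ERG with SOX7 had 0.72 and NRP1 with ERG 0.66, while LMO2 with EPAS1 (0.92) and CLDN5 with ANGPT2 (0.89) moved little. The lowest were EMCN with UNC5B (-0.87), CLDN5 with TIE1 (-0.82), PROX1 with NOTCH1 (-0.79) and ANGPT2 with TIE1 (-0.78). These are the ends of a long list and were picked for their size, so they carry no test.

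**Figure D5:**
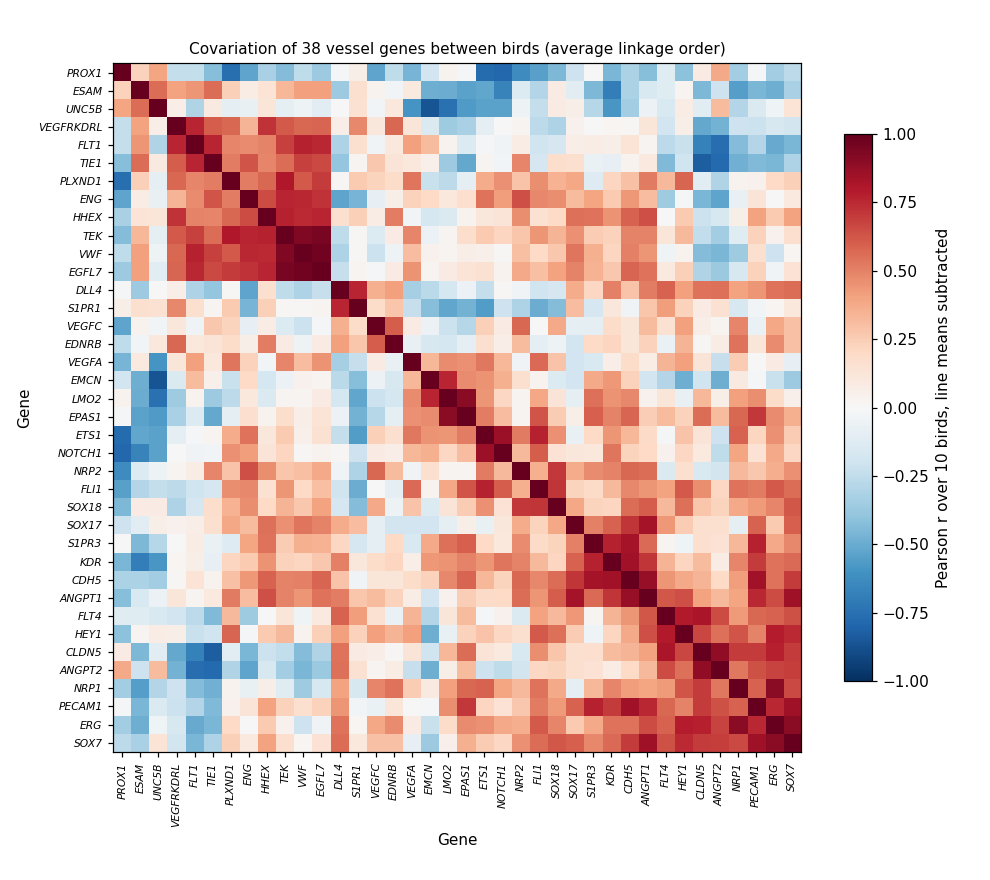
Pearson r over 10 birds, line means subtracted, for every pair of the 38 genes (red above 0, blue below 0), genes ordered by average linkage. VWF, EGFL7 and TEK stand together (r = 0.93 to 0.96), as do SOX7, ERG and PECAM1, and PROX1 is below 0 with most genes.

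Pairs with a textbook link (ligand and receptor, receptors of 1 family, factors of 1 family) were tested over the 10 birds, 28 pairs in all, by permutation with Benjamini-Hochberg adjustment over the 28. Unlike the r above, these r were taken without subtracting line means, so line differences enter them. Of the 28 pairs, 21 had an r above 0, and 1 passed the adjusted threshold by Pearson r and 0 by Spearman rho, where 2 had an unadjusted p under 0.05 by r. The junction genes CDH5 and PECAM1 had r = 0.86 (permutation p = 0.00157, adjusted p = 0.044) and rho = 0.77 (permutation p = 0.0123, adjusted p = 0.345). Without fat line 4 and lean line 2, the birds farthest from the median of CDH5, r was 0.79, and with line and wash run means subtracted it was 0.96. The adjusted p passed in only 1 of the 10 sets that leave out 1 bird, that without lean line 3, while r stayed between 0.81 and 0.92, and it did not pass after quantile normalization.

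FLT1 and VEGFRKDRL had r = 0.76 (permutation p = 0.0094, adjusted p = 0.132) and rho = 0.67 (permutation p = 0.0399, adjusted p = 0.416), with r = 0.59 without fat line 1 and lean line 3. ENG and TEK had r = 0.72 (permutation p = 0.0508, adjusted p = 0.474) but rho = 0.30 (permutation p = 0.409, adjusted p = 0.967), and the relation rested on lean line 3, without which r was -0.0040, and it was -0.21 without fat line 4 as well. For the ligands, r was 0.080 for VEGFA with KDR, 0.41 for VEGFA with FLT1, 0.12 for VEGFC with FLT4, 0.49 for ANGPT1 with TEK and -0.31 for ANGPT2 with TEK, none past the adjusted threshold (adjusted p = 0.617 or above for all other pairs). DLL4 and NOTCH1 had r = -0.010, and NOTCH1 and HEY1 had r = -0.037. ERG with CDH5 had 0.30, which was -0.32 without fat line 4 and 0.55 with line means subtracted.

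The genes outside the group that followed the mean of the 8 identity and junction genes most closely, of 9255 brighter than the median of the array, were PEF1 (r = 0.93), a calcium-binding protein, AQP3 (0.92), a water and glycerol channel, SMC2 (0.92), a condensin subunit, and C1QB (0.91), a complement protein made by macrophages. LOC100857883 (0.91), C1QC (0.89), LMNB1 (0.89) and GPN2 (0.88) came next. These r are over 10 birds with line means subtracted. AQP3 had signals of 8698, 3876, 5899, 6329 and 6244 in fat line birds 1 to 5, against 3346, 3972, 12242, 2456 and 4935 in lean line birds 1 to 5. C1QB had 3017, 2371, 2849, 2675 and 3071 in fat line birds 1 to 5, against 3729, 2879.9, 7728, 2125 and 3855 in lean line birds 1 to 5. Both were highest in lean line 3 and lowest, within that line, in lean line 4, as was the mean of the identity genes. Without lean line 3 the r of the 8 genes were 0.71 to 0.90, with PEF1 the highest.

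Other genes of the same pathways, from lists of their own, gave 0 genes past the adjusted threshold by limma in either direction. At an unadjusted p under 0.05, the other VEGF genes and VEGF response genes had 1 higher and 1 lower of 9 measured, and the other endothelial markers had 2 higher and 2 lower of 27, where 3.33% of all genes were higher and 4.6% lower. RCAN1, a calcineurin inhibitor induced by VEGF in endothelial cells, had 1322, 709, 1826, 679 and 1228 in fat line birds 1 to 5, against 483, 592, 631, 632 and 669.9 in lean line birds 1 to 5. Every fat line bird was above every lean line bird, as for 1.5% of all genes in either direction, and RCAN1 had a log2 fold of 0.84 (SE 0.25, unadjusted p = 0.00433, adjusted p = 0.444 by limma, exact permutation p = 0.00794). VEGFD, a lymphatic growth factor, had -0.62 (limma adjusted p = 0.672). TSPAN18, a tetraspanin of endothelial cells, had 1159, 1006, 1017, 362 and 546 in fat line birds 1 to 5, against 392, 284, 197, 161 and 329.5 in lean line birds 1 to 5. Only fat line 4 lay within the lean line range, and TSPAN18 had a log2 fold of 1.53 (SE 0.34, unadjusted p = 0.000421, adjusted p = 0.266 by limma, exact permutation p = 0.0159). TSPAN18 too was named by the study from these same birds, by this probe set, so its direction is not independent evidence.

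AQP1, the water channel of capillaries and red cells, had 1313, 2077, 664, 1846 and 2177 in fat line birds 1 to 5, against 6245, 2839.9, 4589, 4025 and 2252 in lean line birds 1 to 5. Every fat line bird was below every lean line bird, and AQP1 had a log2 fold of -1.33 (SE 0.32, unadjusted p = 0.000794, adjusted p = 0.315 by limma, exact permutation p = 0.00794). TAL1, a factor of vessel and red cell progenitors, had -0.59 (limma adjusted p = 0.673). Chicken red cells keep a nucleus and RNA, and the red cell markers leaned the same way, 5 of 6 with a log2 fold below 0 and 4 at an unadjusted p under 0.05 (over all genes 56.1% and 4.6%), with a summed signal of 7720.0 to 29726 in the fat line and 22580.1 to 35361 in the lean line. Their part in the values of AQP1 and TAL1 was not tested. PTPRB, the phosphatase that restrains TEK, had 0.51 (limma adjusted p = 0.656).

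Of the BMP and TGF-beta genes, 12 of 17 had a log2 fold above 0, with 2 higher and 1 lower at an unadjusted p under 0.05, where 43.9% of all genes were above 0, 3.33% were higher and 4.6% lower at that p. SMAD6, an inhibitor of BMP signals in endothelium, averaged 1788 ± 424 in the fat line and 1181 ± 264 in the lean line (SD, n = 5 each), a log2 fold of 0.60 (SE 0.20, adjusted p = 0.503 by limma). BMPER, an endothelial regulator of BMP, had 0.42, and the BMP target ID2 had -0.51 (limma adjusted p = 0.666 and 0.642). The vessel basement membrane genes leaned lower in the fat line, 11 of 13 below 0 (as were 56.1% of all genes) with a median log2 fold of -0.20, against -0.045 over all genes. The laminin LAMB2 averaged 789.9 ± 119.7 in the fat line and 1142 ± 228 in the lean line (SD, n = 5 each), a log2 fold of -0.52 (SE 0.18, adjusted p = 0.531 by limma), the 1 of the 13 at an unadjusted p under 0.05. The artery, vein and Notch partners had 1 higher and 0 lower of 16 at that p (NRARP, dim, 1.71), and the guidance genes 0 higher and 1 lower of 16 (SEMA3F, dim, -2.12). The other genes of the sphingosine and endothelin systems had 0 higher and 0 lower of 10, and the hypoxia response genes 0 higher and 0 lower of 12.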

How the data were processed

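Abdominal fat RNA of each bird was hybridised to 1 array. The deposited intensity values are signals that the authors made with MAS5, scaled to a trimmed mean of 500.1 (2% trimmed at each end), without detection calls, so probe sets called absent could not be removed. Of 38535 probe sets, 96 controls were left out. Symbols come from the array's annotation (27168 probe sets with 1 symbol, 177 with several, 11094 with none). All 38 genes matched RefSeq by gene ID. Sequences and genome positions are not used here.

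Log2 signals were compared with limma 3.58.1 in R 4.3.3 (lmFit, eBayes with an intensity trend, two-sided, Benjamini-Hochberg over all probe sets), with SAM (delta 0.8, 100 permutations) beside it, and single genes by an exact permutation test over 252 labellings. Pairs were tested with 100000 permutations. The tests were tried on simulated data. Other steps ran in Python 3.11.15 with scipy 1.17.1, numpy 2.4.6 and pandas 2.3.3. The study left 1 bird out that the labels do not identify, so all 10 entered. Wash runs were inferred from the deposited hybridization records, so they are a grouping made here and not a given label. Run 1 held fat line 5 and lean line 4, and run 2 held lean line 1 and 2. Run 3 held fat line 1, 2 and 3 and lean line 5, and run 4 held fat line 4 and lean line 3. The genes and lists were chosen with earlier results of these data known. Every one of the 38 genes is named by its brightest probe set, with values per bird for those of small p, for the VEGF and angiopoietin receptors and main junction genes, and for those with a bird far from its line, and up to 4 genes of smallest p per other list. Marker lists of other cells and organs were also run, and each had 0 genes past the adjusted threshold by limma. At an unadjusted p under 0.05, 4 of 16 liver, 2 of 14 intestine, 2 of 15 lymphocyte, 0 of 5 mesothelium, 1 of 15 skeletal muscle, 0 of 15 macrophage and 3 of 13 cell cycle markers were lower in the fat line (as were 4.6% of all genes) and 0 of any of them higher. The limma p-values set a line difference against the spread between birds of a line, which eBayes draws together over probe sets. With 1 array per bird, that spread also holds differences between arrays. The exact p-values set the difference against the 252 labellings. The pair p-values come from permutation over all 10 birds, with line means not subtracted. Other scalings, floors, filters, blocks and birds left out were tried as alternatives.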

Additional observations from a re-analysis of the deposited data

Results flagged for a closer look

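In 6 of the 76 combinations of a vessel gene and a line, 1 bird lay outside Dixon's limit for 5 samples, where chance alone gives about 1 in 20. Fat line 4 was the low bird in 2 of them. There FLI1 had 2174, where the other 4 birds of the line had 3359 to 3748, and S1PR3 had 609.9, where the other 4 birds of the line had 780.4 to 822. In fat line 5, ANGPT2 had 5553, where the other 4 birds of the line had 2213 to 2879. The other 3 were high signals of lean line 3. In that bird ENG had 2064, where the other 4 birds of the line had 1110.0 to 1217, FLT1 had 1014, where the other 4 birds of the line had 476 to 538, and HHEX had 5596, where the other 4 birds of the line had 2469 to 3128. The cause was not tested.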

How the results depend on the processing

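Under every alternative but 1, 0 of the 83 probe sets passed the adjusted threshold. The exception was S1PR1 without fat line 2, the only call over all probe sets there. The count of 12 at an unadjusted p under 0.05 (14.5%, against 7.38% of all probe sets) depended on the setting. It was 7 after quantile normalization (8.43%, against 7.27%) and 7 with signals under 100 set to 100 (8.43%, against 6.78%). It was 6 (7.23%) without the intensity trend, with scan day as a block and with wash run as a block, against 6.74%, 6.19% and 7.62%. Within scan day 3 it was 7 (8.43%, against 5.41%), and 4 genes did not overlap there (EMCN, NRP2, ANGPT1 and SOX18, with 14.7% of all genes). With 1 bird left out, the adjusted count was 0 to 1 and the unadjusted count 6 to 15 (7.23% to 18.1%, against 5.49% to 11.3% of all probe sets). The count without overlap was then 0 to 2, against 1.91% to 4.3% of all genes. The count of named pairs was 0 to 1 with 1 bird left out, and 0 after quantile normalization. The median r of 0.16 was 0.47 with arrays scaled to the same median, 0.33 with wash runs subtracted and 0.30 within scan day 3. Scaling to the same median shifted the median of all probe sets from -0.055 to 0.042 and that of the 38 genes to 0.18. Scan day 3 alone and quantile normalization without fat line 4 were chosen after seeing the data, as was leaving out fat line 4 and lean line 3 together.

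Log2 folds of genes changed sign as follows, all of them from within 0.25 of 0 except those of the dim FLT4 probe set and EGFL7, and the cause was not tested. Scaling to the same median gave FLT4 0.059, TEK 0.0059, ETS1 0.059 and PROX1 0.0013. Quantile normalization gave PROX1 0.00055. Quantile normalization without fat line 4 gave 2 genes that did not overlap, and ETS1 0.020. Scan day as a block gave VWF -0.063, FLT1 -0.017, ANGPT1 -0.29, ANGPT2 0.12, TIE1 -0.044 and PROX1 0.22. Wash run as a block gave ANGPT1 -0.36, ANGPT2 0.044 and PROX1 0.31. Scan day 3 alone gave CDH5 -0.14, VWF -0.26, FLT1 -0.011, ANGPT1 -0.86, TIE1 -0.025, FLI1 -0.019, ETS1 0.011, PROX1 0.054 and the dim FLT4 probe set -0.44. With 1 bird left out the ranges that crossed 0 were VWF -0.024 to 0.26, EGFL7 -0.49 to 0.063, FLT4 -0.15 to 0.094, VEGFA -0.067 to 0.11, ANGPT1 -0.25 to 0.30, TEK -0.19 to 0.097, ETS1 -0.11 to 0.070, LMO2 -0.15 to 0.15, PROX1 -0.26 to 0.12, DLL4 -0.073 to 0.21 and UNC5B -0.0089 to 0.16. For pairs, subtracting line means gave r of NRP1-PLXND1 0.036, DLL4-NOTCH1 0.011, NOTCH1-HEY1 0.20, S1PR1-CDH5 -0.038 and S1PR1-S1PR3 -0.17. Quantile normalization gave r of VEGFA-VEGFRKDRL -0.038, FLT1-KDR -0.0056, KDR-VEGFRKDRL -0.032, DLL4-NOTCH1 0.033, PROX1-FLT4 0.028, SOX17-SOX18 -0.0037 and CDH5-ESAM 0.083. With 1 bird left out, the pairs that crossed 0 or lost the call ranged over VEGFA-KDR -0.28 to 0.53, VEGFA-VEGFRKDRL -0.088 to 0.30, ANGPT2-TEK -0.45 to 0.13, TEK-TIE1 -0.053 to 0.62, FLT1-KDR -0.085 to 0.42, NRP1-KDR -0.32 to 0.55, NRP2-FLT4 -0.41 to 0.034, DLL4-NOTCH1 -0.21 to 0.28, NOTCH1-HEY1 -0.25 to 0.39, PROX1-FLT4 -0.23 to 0.059, SOX17-SOX18 -0.083 to 0.32, ERG-FLI1 -0.44 to 0.61, ERG-CDH5 -0.32 to 0.50, CDH5-PECAM1 0.81 to 0.92, CDH5-ESAM -0.29 to 0.38 and ENG-TEK -0.0040 to 0.79.

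The bird numbers do not pair the lines. The r of deviations between birds of the same number was -0.14 to 0.063, and 0 of 5 correlated best with their own number. With the number as a replicate block, 0 of the 83 probe sets passed the adjusted threshold, and S1PR1 had a limma adjusted p of 0.29. At an unadjusted p under 0.05 there were then 13 of the 83 (15.7%, against 6.74% of all probe sets). The block changed no call. The linear signal of 9.1 to 269 limits what the dim FLT4 probe set can show.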
